A study of Mus musculus with 4 samples.

Results

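The expression of 42 genes that build ribosomes, most of them in the nucleolus, was followed through 4 primary mouse neuroblastomas. The members were fixed by name, and each was read from the probe set that the array annotation assigns to that gene alone, the brightest where there were several. This gave values for 40 of the 42 members, out of 22180 genes named in the same way. Fbl and Tsr1 lie on probe sets shared with another gene and have no value of their own. The 4 tumours form 1 group. All carry mutant Alk, the TH-MYCN transgene and Stat6-/- on a C57BL\6 x 129Sv/J background, and none with intact Stat6 was analysed here, so the values describe these tumours and the spread between them, with no contrast of conditions and no test. TH-MYCN drives MYCN from the tyrosine hydroxylase promoter, active in cells of the sympathetic lineage. Neither the animals' ages nor whether each tumour came from an animal of its own is known here, and the spread may be partly technical.

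Ribosome production starts in the nucleolus, where RNA polymerase I transcribes the long precursor of the ribosomal RNAs. Small nucleolar RNAs and their proteins fold, cleave and modify this precursor while assembly factors, GTPases and RNA helicases shape the small and the large subunit. Genes of this pathway are well-known targets of MYC proteins, and a large nucleolus is a classic feature of fast-growing MYC-driven cells.

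All 40 measured members lay above background in the mean of the 4 tumours, against 40.5% of all named genes. Background was set at a log2 signal of 6.17, the 95th percentile of 1390 olfactory and vomeronasal receptor genes. Member means ran from 6.32 for Rrp1b to 11.12 for Npm1, and 34 of the 40 also passed a stricter floor at the 99th percentile, 7.14. The share of all named genes above that stricter floor is not given, so the 34 have no background beside them. Levels are not ranked between genes, since each probe set has its own probes. Rrp1b lay closest to the floor, with 6.54, 6.39, 6.27 and 6.07 in tumours 1 to 4, so tumour 4 fell below it.

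Among the members 1 order of the tumours was the most common. By the probe set used here, no member reached a range of 1 log2 unit (2-fold) over the 4 tumours, a range that 4.26% of all detected genes reached, while a dimmer probe set of Nop56 had a range of 1.18. A range of 0.5 log2 units (1.41-fold) was reached by 18 of 40 members and by 35% of detected genes. The median range was 0.47 log2 units for members and 0.41 for all detected genes. By deposited value, 22 of 40 members were highest in tumour 2 and lowest in tumour 4, an order that 14.2% of detected genes showed.

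**Figure D1:**
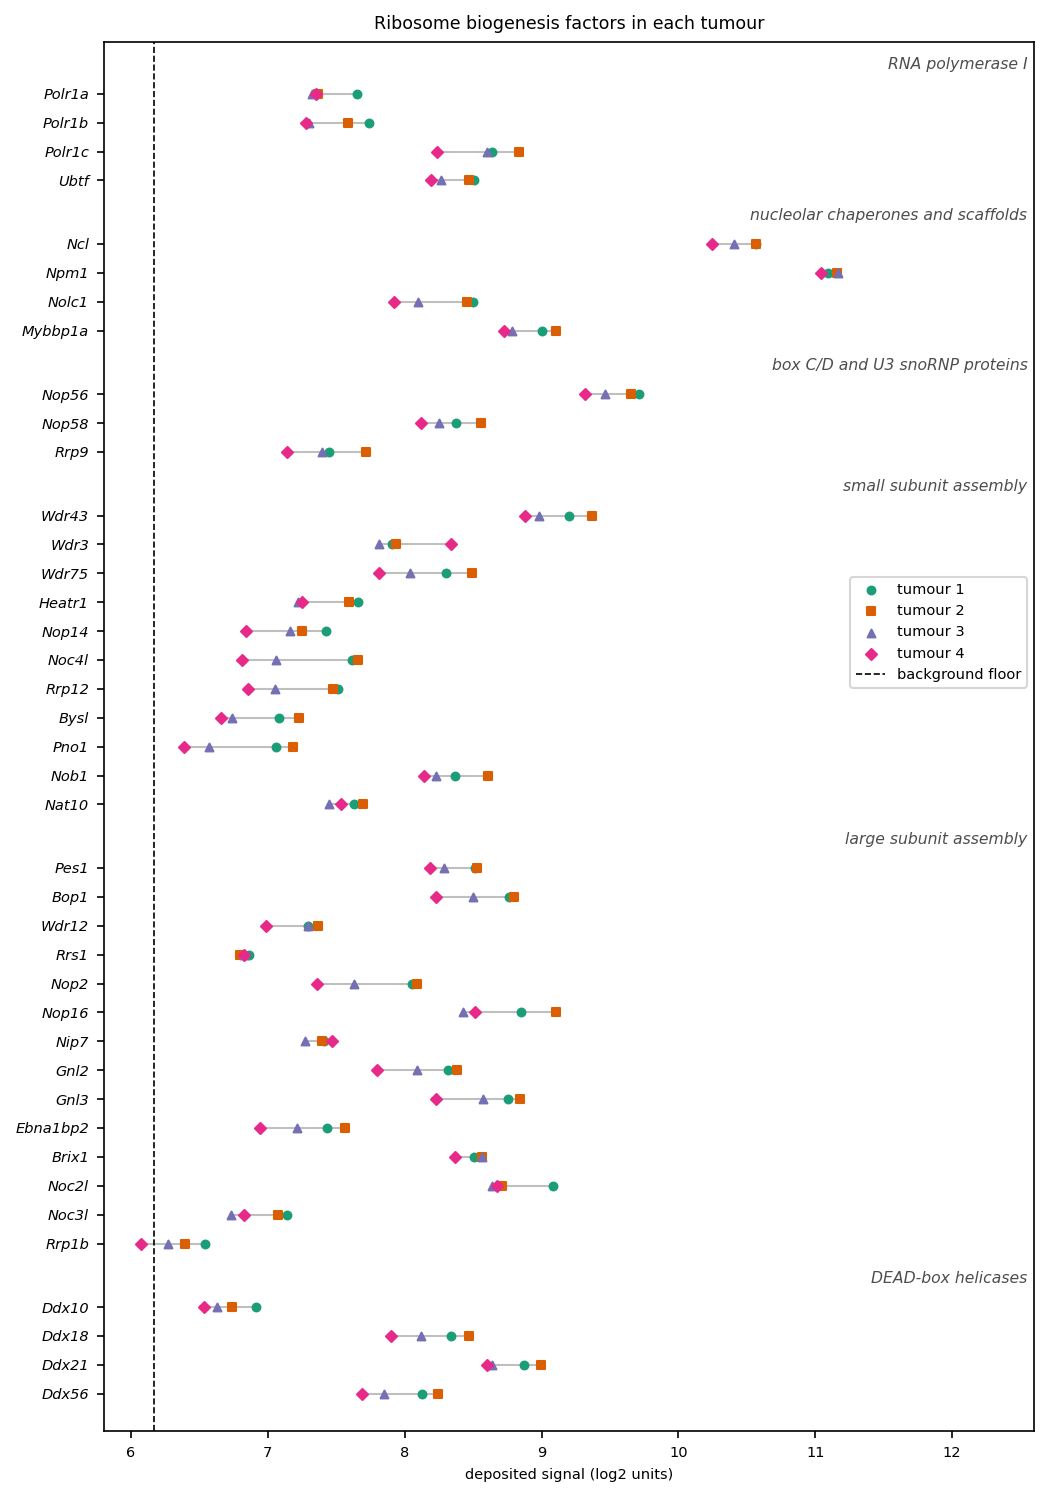
Deposited log2 signal of the 40 measured members (rows, by role) in the 4 tumours (coloured symbols), with the range as a grey line and the background floor of 6.17 as a dashed line. Tumour 4 is the lowest symbol for 31 members, where 38.6% of detected genes are lowest there, while Wdr3 and Nip7 are highest there.

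The arrays differed in their overall level for detected genes, by median deviations from their own 4-tumour means of 0.12, 0.04, -0.09 and -0.08 in tumours 1 to 4. Deviations below are given relative to these offsets. On that scale the median member stood at 0.02 ± 0.10 in tumour 1, 0.16 ± 0.12 in tumour 2, -0.02 ± 0.08 in tumour 3 and -0.13 ± 0.15 in tumour 4 (log2 units, SD over 40 members). In tumour 2, 33 of 40 members lay above 0, and in tumour 4, 34 of 40 lay below it, where by construction 50% of detected genes lie on each side. Without the offset the members above their own mean numbered 38, 36, 4 and 2 in tumours 1 to 4, against 25, 33, 16 and 6 with it. The share of all detected genes above their own mean without the offset was 82%, 60.8%, 28.7% and 32.4%. On the relative scale 28 of 40 members were highest in tumour 2, against 29.2% of detected genes, and 29 of 40 were lowest in tumour 4, against 29% of detected genes. The median in tumour 2 was 0.09 without tumour 4, and that in tumour 4 was -0.24 with no background floor. Each tumour was read on 1 array, so these are descriptions of single samples.

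**Figure D2:**
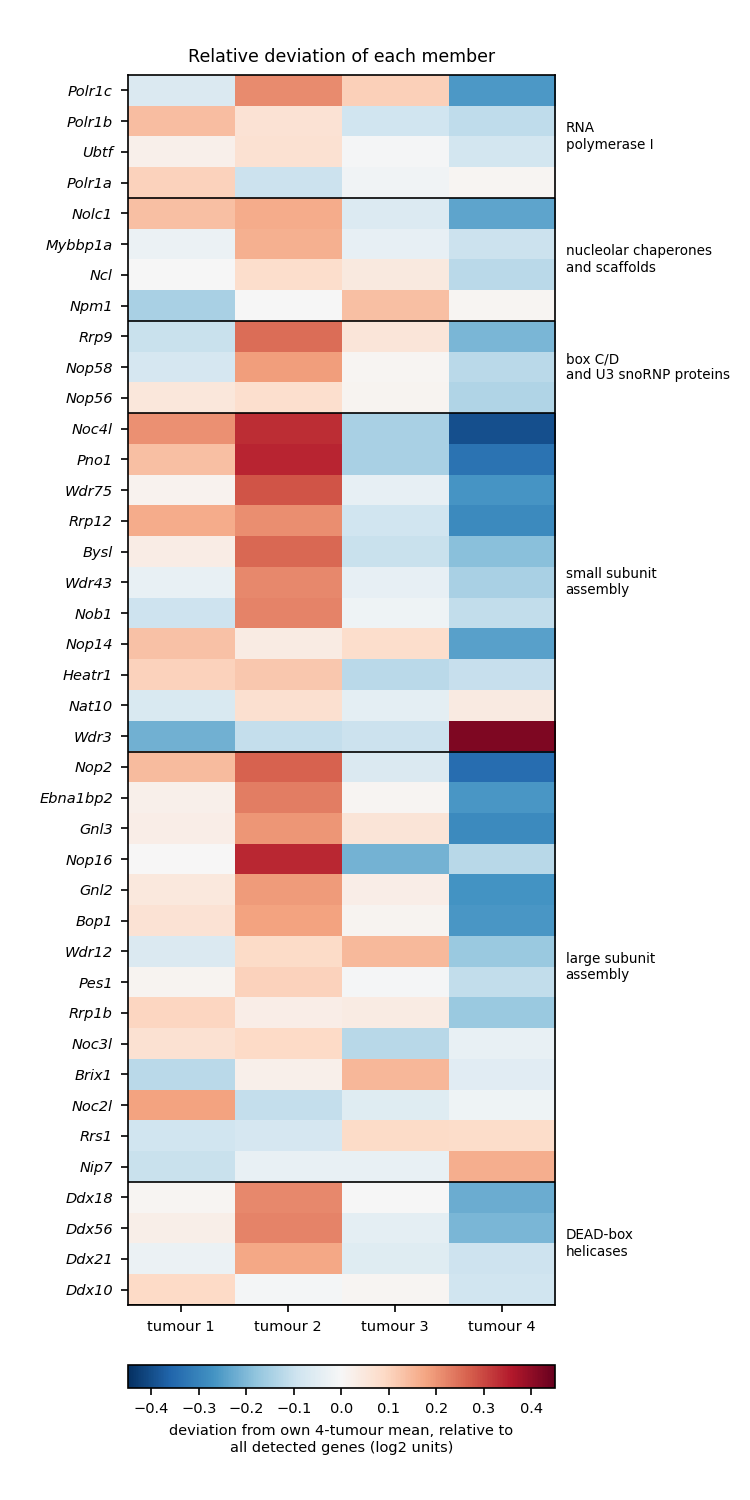
Deviation of each measured member (rows, by role) from its own 4-tumour mean in log2 units, relative to the median of all detected genes, in each tumour (columns). Most rows are red in tumour 2 and blue in tumour 4, and Wdr3 has its strongest colour, 0.42, in tumour 4.

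RNA polymerase I is represented by Polr1a, its largest subunit, Polr1b, the second largest, Polr1c, which it shares with RNA polymerase III, and Ubtf, the factor that keeps the ribosomal DNA open. Polr1c varied most of the 4, with 8.64, 8.83, 8.60 and 8.24 in tumours 1 to 4 (mean 8.58 ± 0.25, SD, n = 4). Tumour 2 was the highest and tumour 4 the lowest, a range of 0.59 (1.51-fold). Ubtf varied least, with 8.51, 8.47, 8.27 and 8.19 (mean 8.36 ± 0.15), a range of 0.31. Polr1a measured 7.65 in tumour 1 and 7.37, 7.32 and 7.35 in tumours 2 to 4 (mean 7.42 ± 0.15). By deposited value tumour 1 stood alone and the other 3 lay within 0.05 of each other. On the relative scale the 4 tumours were at 0.10, -0.10, -0.02 and 0.01. Polr1b averaged 7.48 ± 0.22 (SD, n = 4), lowest in tumour 4.

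The nucleolar chaperones and scaffolds were measured in all 4 members. Npm1, nucleophosmin, a histone and ribosome chaperone of the granular outer nucleolus, measured 11.10, 11.16, 11.16 and 11.04 in tumours 1 to 4 (mean 11.12 ± 0.06). These values span 0.12 log2 units, the narrowest range of the group. Ncl, nucleolin, which binds nascent ribosomal RNA, averaged 10.45 ± 0.16 and Mybbp1a, a MYB-binding nucleolar protein, 8.90 ± 0.18 (SD, n = 4). Nolc1, a scaffold that accompanies small nucleolar ribonucleoproteins, was the widest with 8.50, 8.45, 8.10 and 7.92 (mean 8.24 ± 0.28). Ncl, Nolc1 and Mybbp1a were each lowest in tumour 4, by deposited and by relative value.

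The small nucleolar ribonucleoprotein group was measured in 3 of its 4 members, since the methyltransferase Fbl has no value of its own. Its partners Nop56 and Nop58, paralogous core proteins of the box C/D particle, averaged 9.53 ± 0.18 and 8.33 ± 0.19 (SD, n = 4). Nop56 was the narrowest of the group, with 9.71, 9.65, 9.46 and 9.32 in tumours 1 to 4, lowest in tumour 4. Rrp9, a protein of the U3 particle that guides early cleavage of the precursor, was the widest, with 7.45, 7.72, 7.40 and 7.14 (mean 7.43 ± 0.24). All 3 were above 0 in tumour 2 and below 0 in tumour 4 on the relative scale.

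The small subunit factors had the widest ranges, with a median of 0.57 log2 units over 11 measured members. Noc4l, whose yeast relative works with that of Nop14 in the early small subunit precursor, measured 7.62, 7.66, 7.06 and 6.81 in tumours 1 to 4 (mean 7.29 ± 0.42, SD, n = 4). Tumour 2 was 1.81-fold above tumour 4, or 1.65-fold after the array offset. Pno1, a late factor that partners the endonuclease Nob1, measured 7.06, 7.19, 6.57 and 6.39 (mean 6.80 ± 0.38). For both genes tumours 1 and 2 were high and tumours 3 and 4 low. Wdr75 and Wdr43, proteins of the complex that joins the precursor during transcription, averaged 8.16 ± 0.30 and 9.11 ± 0.22, Heatr1 of the same complex 7.43 ± 0.23 and Nop14 7.17 ± 0.24 (SD, n = 4). Rrp12, an export factor in yeast, averaged 7.22 ± 0.32, Bysl, the bystin of the late nuclear precursor, 6.92 ± 0.27, and Nob1 8.34 ± 0.20 (SD, n = 4). The acetyltransferase Nat10, which modifies small subunit RNA, varied least, with 7.63, 7.69, 7.45 and 7.54 (mean 7.58 ± 0.11).

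Wdr3 went against this order. This WD-repeat protein of the small subunit processome measured 7.90, 7.93, 7.81 and 8.34 in tumours 1 to 4 (mean 8.00 ± 0.23, SD, n = 4). Tumour 4 was the highest, and the other 3 lay within 0.12 log2 units. Its relative deviation in tumour 4 was 0.42, against a median of -0.19 ± 0.22 for the 11 small subunit members (SD over members).

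The large subunit list was measured in all 14 members, with a median range of 0.46. Nop2, a methyltransferase of large subunit RNA, was the widest, with 8.05, 8.09, 7.63 and 7.36 in tumours 1 to 4 (mean 7.78 ± 0.35). It was 1.66-fold higher in tumour 2 than in tumour 4, or 1.52-fold after the offset. Nop16, a factor of the early large subunit, averaged 8.72 ± 0.31 and was lowest in tumour 3 by deposited value. The complex of Pes1, Bop1 and Wdr12, needed to process large subunit RNA, averaged 8.38 ± 0.17, 8.57 ± 0.26 and 7.23 ± 0.17 (SD, n = 4), and the RNA of each was highest in tumour 2 and lowest in tumour 4 by deposited value. On the relative scale Wdr12 was highest in tumour 3, at 0.15 against 0.09 in tumour 2. The nucleolar GTPases Gnl2 and Gnl3 (nucleostemin) shared the deposited order, at 8.15 ± 0.27 and 8.60 ± 0.27, as did Ebna1bp2, a partner of early large subunit particles, at 7.29 ± 0.27 (SD, n = 4).

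Among the remaining large subunit factors, Rrs1, an assembly factor of early large subunit particles, measured 6.86, 6.80, 6.83 and 6.83 in tumours 1 to 4 (mean 6.83 ± 0.03). Its range of 0.07 was the narrowest of all members by deposited value and the probe set used. The dimmer probe set of Rrs1 had a range of 0.47, and on the relative scale the used one ran from -0.09 to 0.08. Nip7, a small RNA-binding factor, averaged 7.39 ± 0.08 and Brix1, a protein of the BRIX family, 8.50 ± 0.09 (SD, n = 4). Noc2l measured 9.08 in tumour 1 and 8.71, 8.64 and 8.68 in tumours 2 to 4 (mean 8.78 ± 0.21), again with tumour 1 alone above the others by deposited value. Its yeast relatives form a complex with the relatives of Noc3l, which averaged 6.94 ± 0.19 (SD, n = 4).

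The DEAD-box helicases unwind RNA within the precursors. By the probe sets used, all had their lowest deposited value in tumour 4, as did 38.6% of detected genes. The dimmer probe set of Ddx21 was highest there, at 6.88, and that of Ddx18 measured 5.84 in both tumour 2 and tumour 4. Ddx18 was the widest, with 8.34, 8.47, 8.12 and 7.90 in tumours 1 to 4 (mean 8.21 ± 0.25), and Ddx10 the narrowest, with 6.92, 6.74, 6.63 and 6.53 (mean 6.70 ± 0.16). Tumour 1 was highest for Ddx10 and tumour 2 for the other 3. Ddx21 averaged 8.78 ± 0.19 and Ddx56 7.98 ± 0.25 (SD, n = 4).

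Promoters were searched for CACGTG, the E-box that MYC and MAX bind, because the pathway is a known MYC target. Both strands read the same letters. The RefSeq promoter table (GRCm38.p6), with 250 bases before and 50 after each start, held 36 of the 42 members. The motif was in a window of 6 of these 36 (16.7%), against 12.1% of detected genes, 8.09% of all genes and 7.15% of all windows in the table. Among the other ribosome biogenesis factors it was in 17 of 84. The median number of CG pairs per window was 23 in members and 23 in detected genes. The 5 measured members with the motif are shown with 30 bases each, 5′ to 3′ on the strand of the gene with the motif in capitals, so that position and flanks can be compared. The position of the first motif base is counted from the start site.
Nop2, chr6:125131811-125131840, plus strand, 60 bases before the start: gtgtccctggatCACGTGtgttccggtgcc
Pes1, chr11:3963965-3963994, plus strand, at base 3: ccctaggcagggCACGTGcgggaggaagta
Wdr43, chr17:71616220-71616249, plus strand, at base 18: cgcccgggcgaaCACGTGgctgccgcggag
Pno1, chr11:17211540-17211569, minus strand, at base 38: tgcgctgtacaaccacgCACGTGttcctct
Mybbp1a, chr11:72441347-72441376, plus strand, at base 41: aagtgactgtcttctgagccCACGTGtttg

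Only Nop2 of these 5 carried the motif upstream of its start, and its 250 upstream bases (chr6:125131633-125131882, plus strand) are given whole because it was also the widest large subunit member.
Nop2 upstream: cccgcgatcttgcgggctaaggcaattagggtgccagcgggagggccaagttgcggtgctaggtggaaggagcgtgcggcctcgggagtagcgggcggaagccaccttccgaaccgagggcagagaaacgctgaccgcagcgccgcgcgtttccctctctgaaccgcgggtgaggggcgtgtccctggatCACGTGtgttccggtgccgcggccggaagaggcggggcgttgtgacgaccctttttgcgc
All 5 were highest in tumour 2 and lowest in tumour 4 by deposited value, as were 17 further members. Among these 17, Wdr75, Noc4l and Gnl3 had no CACGTG in their windows, and Bop1 and Gnl2 had no window to search. In all, 22 of 40 members and 14.2% of detected genes showed this order. Whether the order goes with the motif was not tested.

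Of the MYC family, Mycn had another order than most members. Mycn measured 6.60, 6.01, 6.46 and 6.89 in tumours 1 to 4, lowest in tumour 2, where it lay below the floor, and highest in tumour 4. This probe set is for the mouse gene, and whether it reads the human transgene is not known. Max, the partner of all MYC proteins, averaged 8.95 ± 0.16 (SD, n = 4) and on the relative scale was highest in tumour 2, at 0.08, while Myc (5.75 ± 0.08) and Mycl (4.95 ± 0.09, SD, n = 4) lay below the floor.

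A wider list of 109 further ribosome biogenesis factors, 99 of them measured, was set beside the members. Of these, 92 (92.9%) were detected. Their median relative deviations were 0.02, 0.14, -0.03 and -0.12 in tumours 1 to 4, and 72 of 92 lay above 0 in tumour 2 and 74 of 92 below it in tumour 4. In this list 3 genes reached a range of 1 log2 unit. Imp3, a U3 protein, measured 10.31, 10.50, 9.72 and 9.21, Urb2, in yeast a large subunit factor, 8.45, 8.77, 8.31 and 7.48, and Gtpbp4, a nucleolar GTPase, 8.47, 8.99, 8.20 and 7.90. Ltv1, an export factor of the small subunit, came next with 7.75, 8.15, 7.57 and 7.16. All 4 were highest in tumour 2 and lowest in tumour 4. By deposited value 33 of the 92 detected genes of this list (35.9%) showed that order, against 22 of 40 members. Las1l, a subunit of a precursor endonuclease, and Tsr3, which modifies small subunit RNA, varied least, with ranges of 0.13 and 0.14.

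Mitosis genes and cytosolic ribosomal protein genes were set beside the members as well. The 27 detected mitosis genes had medians of 0.04, 0.20, -0.10 and -0.12 in tumours 1 to 4. By deposited value 14 of 27 (51.9%) were highest in tumour 2 and lowest in tumour 4, a share near the 55% of members. Plk1, a mitotic kinase, measured 10.02, 10.41, 9.50 and 9.41 and Aurka, a spindle pole kinase, 8.47, 8.72, 7.76 and 8.06. Of 59 measured ribosomal protein genes, whose products the members assemble, 46 (78%) were detected and the rest lay below the floor. The 46 had medians of -0.08, 0.02, 0.09 and -0.02, with 25 of 46 above 0 in tumour 2. By deposited value 12 of 46 (26.1%) were highest in tumour 2 and lowest in tumour 4. Of these 46 genes, 4 reached a range of 1 log2 unit. The widest, Rps3a1, measured 10.32, 9.25, 10.16 and 11.06 and the next, Rpl3, 9.44, 9.52, 11.10 and 9.44. The other 2, Rpl34 with 7.38, 7.86, 6.91 and 6.34 and Rps13 with 9.00, 9.11, 8.85 and 7.69, were highest in tumour 2 and lowest in tumour 4, as most members were, and were named after their values were seen. Many ribosomal protein probe sets can share signal with pseudogenes. The differences between lists were not tested.

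**Figure D3:**
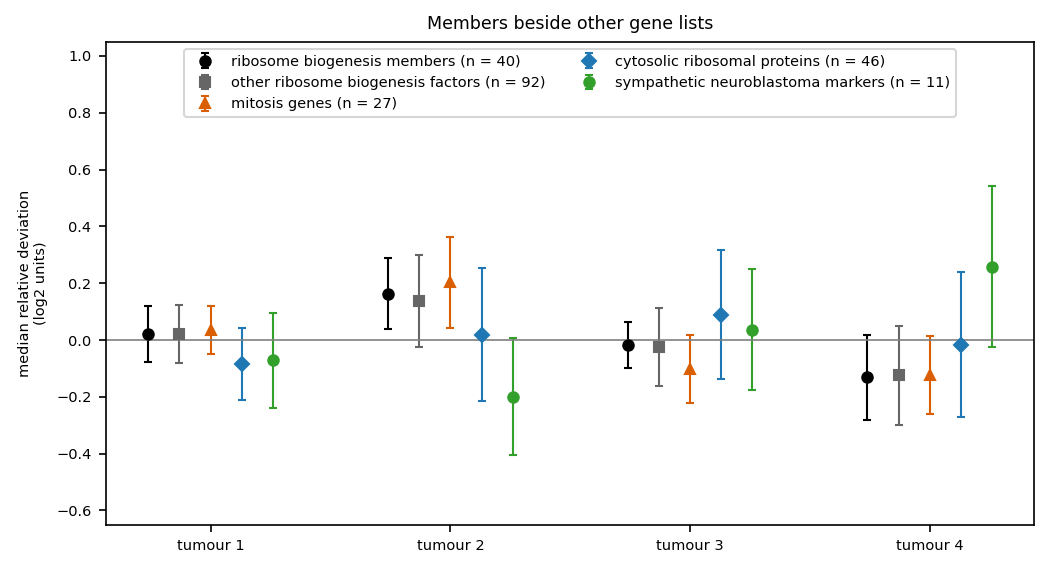
Median relative deviation in log2 units of 5 gene lists in each tumour, with the SD over detected list members as bars. The ribosome biogenesis members, the other factors and the mitosis genes sit above 0 in tumour 2 and below 0 in tumour 4, ribosomal proteins stay within 0.09 of 0, and sympathetic markers lie at -0.20 in tumour 2 and 0.26 in tumour 4.

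Several members carry small nucleolar RNA genes within their own span, a known arrangement in which the intron of a growth gene yields the guide RNA. There were 18 such RNAs inside 6 members by their RefSeq positions, strand not considered. Of these, 10 had a probe set of their own and 6, in 5 host genes, were detected. All 6 had their highest value in tumour 3, which was the highest tumour for 11% of detected genes by deposited value. Snora75, inside Ncl, measured 11.57, 10.39, 12.09 and 11.32 in tumours 1 to 4, a range of 1.69, while Ncl measured 10.57, 10.57, 10.41 and 10.24. Snord82, also inside Ncl, measured 10.96, 10.88, 11.38 and 10.87. The 2 RNAs of this host were both highest in tumour 3, where Ncl was not.

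Snord110, inside Nop56, measured 7.06, 6.46, 7.26 and 6.45, and Snord11, inside Nop58, 10.52, 10.35, 10.85 and 10.09. Snord53, inside Wdr43, measured 9.95, 9.80, 9.95 and 9.50, with tumour 3 barely above tumour 1, and Snord69, inside Gnl3, 9.23, 9.16, 9.54 and 9.25. Their median relative deviations were -0.02, -0.18, 0.46 and -0.15 in tumours 1 to 4, and all 6 lay below 0 in tumour 2, where all 5 hosts lay above it. Snord19, Snord70, Snord91a and Snord92 had means between 3.54 and 4.28, below the floor.

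**Figure D4:**
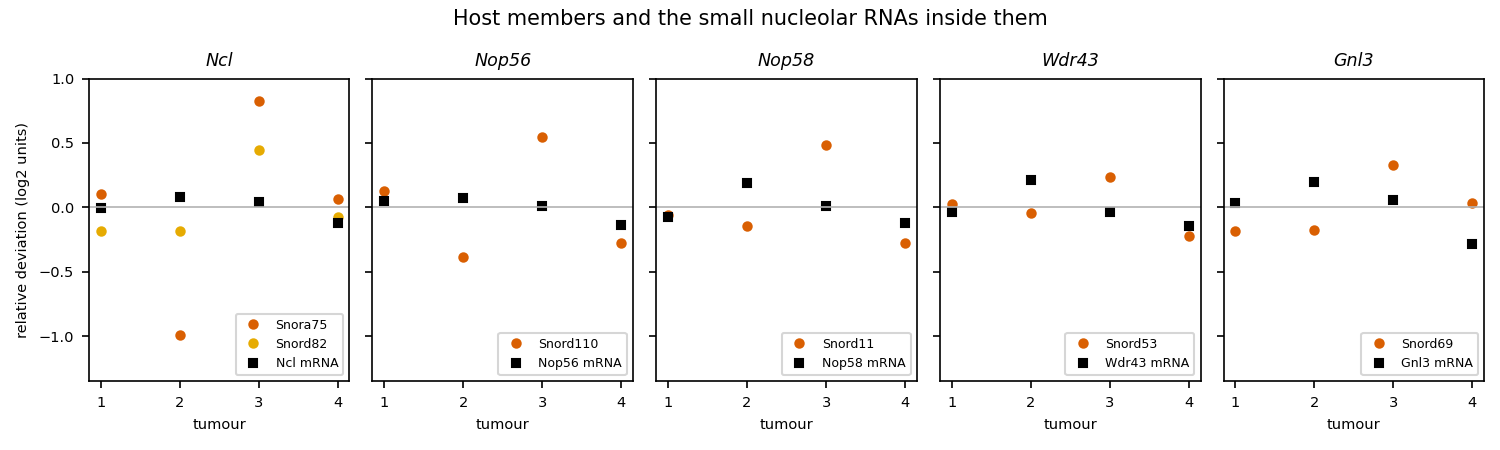
Relative deviation in log2 units of 5 host members (black squares) and of the 6 detected small nucleolar RNAs inside them (orange and yellow circles) in each tumour. The RNAs are highest in tumour 3, Snora75 at 0.83, and the hosts stay between -0.29 and 0.21.

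The cellular make-up of the samples was read from marker genes, and in bulk tissue fewer cells of a type and less RNA per cell cannot be told apart. All 11 measured sympathetic neuroblastoma markers were detected, with a summed log2 signal between 107.7 and 111.3 over the tumours. They lay opposite to the members, at -0.20 in tumour 2 (10 of 11 below 0) and 0.26 in tumour 4 (10 of 11 above 0). Macrophage markers (10 of 13 detected) stood at 0.04, 0.13, -0.44 and 0.19 in tumours 1 to 4, with 9 of 10 above 0 in tumour 4. The deposited values of all 13, detected or not, summed to between 90.1 and 96.9. Fibroblast and matrix markers (9 of 12 detected) stood at 0.45, -0.27, 0.17 and -0.37, with 8 of 9 below 0 in tumour 2 and all 9 in tumour 4. The deposited values of all 12 summed to between 75.3 and 85.2. Endothelial markers had 2 of 10 and Schwann cell markers 2 of 7 detected, and none of 12 skeletal muscle or 9 T and B cell markers passed the floor, although the labels name a neck muscle as the tissue. Tumour 4 was also the only one with a high Xist signal, the RNA of the inactive X chromosome, at 10.13 against 3.89 to 3.95 in the others. None of the 42 members lies on X or Y. The part of cell make-up and sex in the members' order was not tested.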

How the data were processed

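Total RNA from 4 tumours was labelled with biotin and read on 1-colour Affymetrix arrays, per the labels' protocols. The authors deposited 1 value per probe set and tumour, 41345 in all, and the submitters' processing notes name RMA and Partek without versions or settings. The values as deposited, between 2.47 and 13.59, were used as log2 values without further normalization, though no source states the log base. The number of arrays limits the precision. No detection calls were used.

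Of 25335 annotated probe sets, 23521 named 1 gene. Symbols were updated by Entrez identifier through the RefSeq table of GRCm38.p6 (23328 matched). Genes with several probe sets took the brightest. Relative deviation is the deviation of a gene from its own 4-tumour mean minus the median over the 8986 detected genes of that tumour. The computations used Python 3.11.15, numpy 2.4.6 and pandas 2.3.3, and were tested on simulated arrays with known shifts. Tumours are numbered in record order, which carries no pairing. No 2 arrays shared more than 0.22% of values, which shows only that no array is a copy of another. Each was counted as a sample.

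Every measured member was named with its mean. Values per tumour were given for the widest and narrowest member of each of 6 role groups and for members with 1 tumour far from the rest. Wdr3, Pno1, Ncl and Rrp1b were given in full after their values were seen, as was the pair of tumours 2 and 4. The range threshold of 0.5 log2 units, and the limit of 0.1 log2 units below which a change of sign under an alternative was not counted as a reversal, were also chosen after values were seen. Members and lists were chosen with earlier results of these data known. Alternatives were other floors, probe set means, quantile normalization, other offsets and leaving out each tumour.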

Additional observations from a re-analysis of the deposited data

Results flagged for a closer look

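Dixon's ratio is the gap of the outermost tumour to its neighbour over the whole range, taken here on deposited values. It was past its 95% critical value for 4 samples in 2 of the 40 members and in 2 other genes named above. Among all detected genes 3.83% passed, and chance flags about 1 in 20 groups of normal values. Polr1a had a ratio of 0.857, with tumour 1 at 7.65 above 7.37, 7.32 and 7.35. Noc2l had a ratio of 0.834, with tumour 1 at 9.08 above 8.71, 8.64 and 8.68. Both ratios keep the array offset, which was 0.12 in tumour 1. On the relative scale Polr1a stood at 0.10, -0.10, -0.02 and 0.01 and Noc2l at 0.18, -0.11, -0.05 and -0.02 in tumours 1 to 4. There tumour 1 was less set apart, and the ratio was not taken on that scale. Rpl3, a ribosomal protein gene outside the members, had a ratio of 0.949, with tumour 3 at 11.10 and the others between 9.44 and 9.52. Xist had a ratio of 0.991, with tumour 4 at 10.13 and the others between 3.89 and 3.95.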

How the results depend on the processing

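No paired analysis was possible because all 4 tumours belong to 1 group. The median relative deviation of members was moved in tumour 1 (0.02) with no floor, to 0.14, and with no array offset subtracted, to 0.15, and in tumour 3 (-0.02) with no array offset subtracted, to -0.10. All 40 members enter with or without the floor, so these moves come from the array offset alone, which in tumour 1 was 0.0089 over all named genes, against 0.12 over detected genes. In tumour 2 it kept its sign under all 12 alternatives, from 0.09 without tumour 4 to 0.21 with no floor, and in tumour 4 under all 12, from -0.09 without tumour 2 to -0.24 with no floor. Detected members numbered 34 to 40 and no setting gave a member a range of 1 log2 unit. Members highest in tumour 2 numbered 23 to 30 and lowest in tumour 4 24 to 34, counts chosen after seeing the data. The share of detected genes also changes with the setting. For lowest in tumour 4 it was 29% on the relative scale and 38.6% by deposited value, and for the other settings it is not given. Of 240 mean levels under alternatives, 5 moved by over 1 SD, those of Npm1, Nop56, Rrs1, Ddx18 and Ddx21, when all their probe sets were averaged. Small differences near the floor are limited by signal over background.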

Other observations

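Probe sets that the members' values do not use gave further readings. The probe set shared by Fbl and Tulp4 measured 7.93, 7.76, 7.69 and 7.78 in tumours 1 to 4, and that shared by Tsr1 and Srr 7.96, 8.12, 7.89 and 7.84. The probe set shared by Snord57 and Nop56 measured 12.08, 12.14, 12.36 and 12.29, highest in tumour 3 like the nested RNAs and unlike the Nop56 value used. Either gene can give the signal of such a probe set. Nop56 has 2 dimmer probe sets of its own whose order differed from that of the brightest. The first measured 8.49, 7.72, 8.90 and 8.32 and the other 5.56, 4.71, 5.31 and 4.05, with ranges of 1.18 and 1.52 against 0.39 for the brightest. The dimmer probe set of Npm1 measured 6.67, 6.90, 6.90 and 6.76. The dimmer probe set of Rrs1 measured 6.19, 5.83, 6.23 and 6.30 and that of Ddx21 6.72, 6.79, 6.72 and 6.88, both highest in tumour 4. That of Ddx18 measured 5.73, 5.84, 5.70 and 5.84. None of the dimmer probe sets showed the order of tumour 2 highest and tumour 4 lowest. Of the shared ones, that of Tsr1 and Srr did.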
